A study of Mus musculus with 2 samples.

Results

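The genes described here are the Src family kinase genes *Lyn*, *Fgr*, *Src*, *Fyn* and *Yes1*, the kinase genes *Syk* and *Btk* that act after them, and *Csk* and *Ptpn6*, which encode enzymes that restrain them. They were found by their symbols, and all 9 were present among the 37451 genes of the table. Expression was measured by RNA-Seq in 1 library of WT bone marrow-derived macrophages (BMDMs) and 1 library of ΔM BMDMs. WT cells came from C57BL/6 mice and ΔM cells from C57BL/6 TTP fl/fl LysMCre mice, all 7 to 9 weeks old. In ΔM mice, Cre expressed from the lysozyme M locus deletes *Zfp36*, the gene of the mRNA-binding protein TTP, in myeloid cells. Both cultures were grown with CSF-1 from L929 cells. 4-thiouridine (4sU, 100 μM) was present for 16 h, and LPS (10 ng/ml) was given for 6 h per the treatment protocol, so neither library shows the resting state. The sample titles read LPS7, which the labels do not explain. Levels are given as FPKM (fragments per kilobase of exon, corrected for how many fragments each library holds) and are per length. Levels of different genes are therefore set side by side below, within the limit that short annotated isoforms can put on a gene's value.

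Src family kinases sit at the inner face of the plasma membrane and phosphorylate the paired tyrosines (ITAMs) of adaptors such as FcRγ and DAP12 when Fc receptors, integrins or C-type lectins are engaged. Syk binds the phosphorylated ITAM and passes the signal on, in part through Tec family kinases such as Btk. Csk phosphorylates the inhibitory tyrosine in the tail of Src family kinases, and SHP-1, the phosphatase encoded by *Ptpn6*, is recruited to the ITIMs of inhibitory receptors, which Lyn itself can phosphorylate.

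Neither library described here was replicated. Differences between WT and ΔM are therefore given without a replicate check or p-value, and genotype cannot be told apart from the culture, the animal or the library. The number of fragments, recovered from the steps between low FPKMs, was about 36900000 in WT and 32600000 in ΔM. Intervals given below are 95% Poisson intervals from these depths and cover counting error only. *Zfp36* was at 65.3 FPKM in WT cells and 16.7 FPKM in ΔM cells. All 8 macrophage markers were expressed in both libraries, at 2.15 to 2481 FPKM in WT and at 3.48 to 1356 FPKM in ΔM. The summed levels of 6 T cell markers (1.46 and 0.95 FPKM in WT and ΔM) and 4 B cell markers (0.10 and 0.37 FPKM) were low. *Cd4* (1.03 and 0.77 FPKM) and *Cd247* (0.42 and 0.15 FPKM) made up most of the T cell sum. The T cell markers *Cd3e* and *Cd3g* and the B cell markers *Ms4a1* and *Cd79a* were at or near 0. In bulk RNA, fewer cells of a type and less RNA per cell cannot be told apart.

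Within the set, *Fgr*, *Btk* and *Csk* were higher in ΔM, *Ptpn6*, *Src* and *Syk* were lower, *Lyn* and *Fyn* were at nearly the same level in both libraries, and *Yes1* was at the limit of detection. Of the 9 genes, 8 reached a mean of 1 FPKM. Differences are given as log2 ratios of ΔM to WT after adding 1 FPKM to both values, which understates the change of low genes. Past 1.5-fold, 1 of the 8 was higher (12.5%, where 11.2% of all 10765 genes with a mean FPKM of 1 or more were) and 2 were lower (25% against 7.51%). None passed 2-fold, compared with 5.69% of all genes in the upward and 3.61% in the downward direction. Among the 8078 protein-coding genes of this level, 4.82% were higher and 5.36% lower past 1.5-fold. The median log2 ratio of the 8 genes was 0.03, as it was over all genes, and the median size of their log2 ratios without regard to sign was 0.52, compared with 0.22 for all genes and 0.19 for protein-coding genes.

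**Figure D1:**
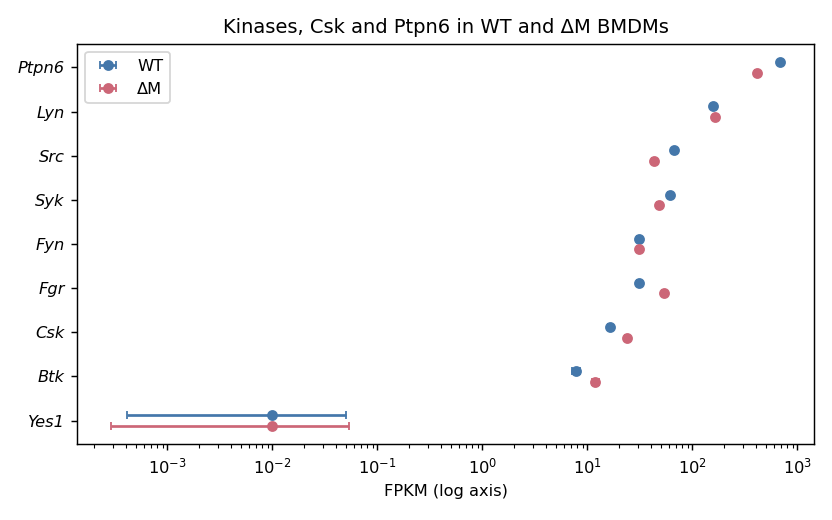
FPKM (log axis) of the 9 genes in WT (blue) and ΔM (red) BMDMs, 1 library each, with 95% Poisson counting intervals that are mostly narrower than the points. *Ptpn6*, whose short annotated isoforms may limit the comparison with other genes, was listed highest in both libraries (678 and 409.6 FPKM). *Fgr* passed *Src* and *Syk* in ΔM, and *Yes1* stood at 0.01 FPKM in both.

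*Lyn*, the Src family kinase with both activating and inhibitory roles in myeloid cells, lies on chromosome 4 (mm9, 3605262 to 3740269, plus strand). It was at 157 FPKM in WT cells and 163 FPKM in ΔM cells, higher than 97.2% and 97.4% of protein-coding genes with a mean FPKM of 1 or more. Its log2 ratio was 0.06, and the plain ratio of ΔM to WT was 1.04 with a counting interval of 1.01 to 1.07. Shifted by the median log2 ratio of all genes, the plain log2 ratio of *Lyn* was 0.03 with a counting interval of -0.01 to 0.07, so that no direction is given for *Lyn*. Part of its sequence recurs in the pseudogene *Gm11787* (chromosome 4, 3424125 to 3443662, minus strand). Of 135 windows of 100 nt taken along the longest *Lyn* transcript, 9 (6.67%) also aligned within that pseudogene, 6 of them without a mismatch. *Gm11787* was listed at 24.3 FPKM in WT cells and 26.3 FPKM in ΔM cells. The authors retained unique matches only, and how many reads of the pair were lost or assigned to the wrong copy was not tested. No window of the other 8 genes aligned elsewhere.

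*Lyn* also carries intronic sites from PAR-iCLIP, in which RNA cross-linked to TTP through 4sU is sequenced. Among the genes described here, sites were read for *Lyn* only. The paper gives TTP sites at different times of LPS in separate lists, and the sites here come from a single list. The sites are shown because they are the TTP-bound stretches listed for a gene whose FPKM, calculated over exons, hardly differed between the libraries. The copy of the list used is shortened, so that sites of the other genes and further sites of *Lyn* may be missing. All *Lyn* sites that were read lie in intron 1 of the 13-exon transcript Lyn-001. Of these, 6 could be read whole and matched NCBIM37 (mm9) at their positions, and 1 more is cut short. They form a first group from 3615336 to 3615527, within an exon of the antisense lincRNA gene *Gm17726*, and a second group from 3649038 onward. Capitals mark TATTTAT, the core TTP motif, or ATTTA, the shorter pentamer contained in it, searched on the sense strand only.

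Lyn intron 1, chr4:3615426-3615453, plus strand: tacttatcatcaATTTAttatctatcta
Lyn intron 1, chr4:3615508-3615527, plus strand: tacttatcatcaATTTAtta
Lyn intron 1, chr4:3615472-3615489, plus strand: tatctatctatctatcta
Lyn intron 1, chr4:3649038-3649065, plus strand: ttatcttttttttaaTATTTATttgttt
Lyn intron 1, chr4:3649068-3649087, plus strand: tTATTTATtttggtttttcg

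ATTTA was present in 4 of the 6 sites, and 2 of these, both in the second group, held TATTTAT. Across all windows of 28 nt in the introns of Lyn-001, 3.63% held ATTTA and 0.563% held TATTTAT. For windows of 20 nt the shares were 2.49% and 0.381%. The first group differed in sequence from the second: its 18-nt site consisted of TATCTA repeats with no ATTTA, and TATCTA occurred in 3 of the 6 sites (28, 33 and 18 nt long), compared with 0.661%, 0.775% and 0.418% of windows of these lengths. The start of the 28-nt site, with its ATTTA, recurs in the 20-nt site at 3615508. The sites had been selected by binding, so these shares are a description of sequence.

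*Fgr*, a Src family kinase of granulocytes, monocytes and macrophages that acts after Fc receptors and integrins, had the largest ratio of the set. It lies on chromosome 4 (132530010 to 132557825, plus strand). It was at 30.9 FPKM in WT (29.7 to 32.1) and 53.4 FPKM in ΔM (51.7 to 55.1), and these intervals did not overlap. The log2 ratio was 0.77, and the plain ratio was 1.73 (1.64 to 1.82). A higher ratio was found for 2.50% of protein-coding genes. *Fgr* was also the only one of the 8 expressed genes with TATTTAT in its longest annotated 3′ UTR. The match lies in exon 13 of 13 of transcript Fgr-001 and is shown in capitals with 10 bases on each side, together with the match in *Yes1*, which lies in exon 12 of 12 of its longest transcript.

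Fgr 3′ UTR, match at chr4:132556658-132556664, plus strand: tttgtctagtTATTTATaaaactgtat
Yes1 3′ UTR, match at chr5:32988670-32988676, plus strand: aaaagtctaaTATTTATgttttaaaat

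TATTTAT was present in the 3′ UTR of 27.0% of 7936 expressed protein-coding genes, and in 33.4% of those with a 3′ UTR of similar length to that of *Fgr* and 40.7% of those similar to *Yes1*. The pentamer ATTTA was present in 66.6% of these genes and in 7 of the 9 described here. *Yes1* held 6 copies, *Fyn* 4, *Syk* 3, *Lyn* and *Fgr* 2 each, and *Src* and *Ptpn6* 1 each. The 3′ UTRs of *Btk* and *Csk* held none. ATTTA was present in 40.9% of expressed genes with a 3′ UTR of similar length to that of *Btk* and 56.4% of those similar to *Csk*. For the kinase genes that held it, this share ran from 79.9% (similar to *Fyn*) to 94.5% (similar to *Syk*), and for *Ptpn6* it was 41.0%. A match is a stretch of letters and says nothing of whether TTP binds there.

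*Src*, which encodes the widely expressed founding kinase of the family, differed in the opposite direction (chromosome 2, 157244180 to 157297598, plus strand). It was at 66.7 FPKM in WT (65.1 to 68.4) and 42.9 FPKM in ΔM (41.6 to 44.4), again without overlap. The log2 ratio was -0.62, and the level in WT was 1.55 times that in ΔM (1.49 to 1.62), so that 1.5-fold itself lies within the counting error. A lower ratio was found for 4.52% of protein-coding genes. *Src* has 8 annotated transcripts, the shortest of 222 nt.

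*Fyn*, a broadly expressed Src family kinase on chromosome 10 (39088661 to 39285187, plus strand), was at 31.0 FPKM in WT (29.7 to 32.3) and 31.1 FPKM in ΔM (29.7 to 32.5). These values were within each other's counting interval, and the plain ratio lay between 0.944 and 1.07. *Yes1*, the close relative of *Src* on chromosome 5 (32913606 to 32989430, plus strand), was listed at 0.01 FPKM in both libraries. This amounts to about 1 fragment in each and lies under the floor of 3 fragments, so that a difference in *Yes1* was not detectable at this depth.

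**Figure D2:**
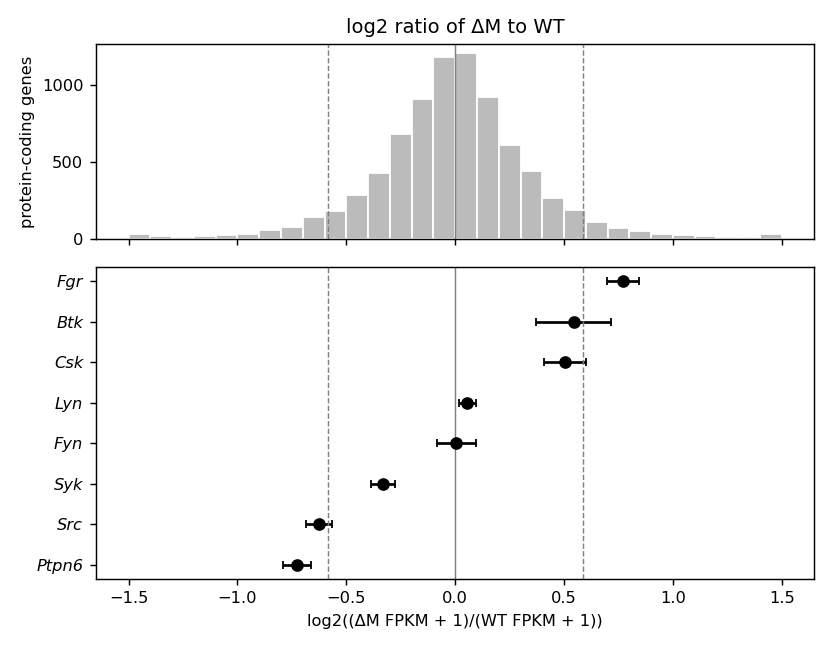
Upper panel, number of protein-coding genes with a mean FPKM of 1 or more by log2 ratio of ΔM to WT, with values beyond 1.5 in size drawn in the end bins. Lower panel, the log2 ratios of the 8 expressed genes with the 95% counting intervals of the plain ratios moved to them, where *Fgr* (0.77) lies above and *Src* (-0.62) and *Ptpn6* (-0.73) lie below the dashed lines that mark 1.5-fold.

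*Syk* was at 60.5 FPKM in WT (59.0 to 62.0) and 47.9 FPKM in ΔM (46.5 to 49.3). Its level was lower in ΔM without overlap of the intervals, but did not pass 1.5-fold (log2 ratio -0.33, level in WT 1.26 times that in ΔM). The gene lies on chromosome 13 (52678542 to 52744161, plus strand). *Btk*, on the X chromosome (131076875 to 131118109, minus strand), encodes the Tec family kinase that takes part in B cell receptor and macrophage signaling. It was at 7.79 FPKM in WT (7.12 to 8.51) and 11.8 FPKM in ΔM (10.9 to 12.8). Its plain ratio of 1.52 (1.35 to 1.71) lay just past 1.5-fold, whereas its log2 ratio of 0.54 after adding 1 FPKM lay just inside. The level of *Syk* was thus 7.77 times that of *Btk* in WT and 4.05 times in ΔM.

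Of the restraining enzymes, *Csk* was higher and *Ptpn6* lower in ΔM. *Csk* (chromosome 9, 57474454 to 57493460, minus strand) was at 16.4 FPKM in WT (15.6 to 17.2) and 23.6 FPKM in ΔM (22.6 to 24.7), with a log2 ratio of 0.50. The intervals did not overlap, and the plain ratio of 1.44 had a counting interval of 1.35 to 1.54. *Ptpn6* (chromosome 6, 124670725 to 124688732, minus strand) was at 678 FPKM in WT (660.3 to 696) and 409.6 FPKM in ΔM (395 to 425). Its log2 ratio of -0.73 was the lowest of the set, and its level in WT was 1.66 times that in ΔM (1.58 to 1.73). The level of *Ptpn6* was listed at 41.4 times that of *Csk* in WT and 17.3 times in ΔM. The short annotated isoforms of *Ptpn6*, described next, may limit this comparison.

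How well a gene's FPKM is defined depends on its annotated transcripts, because the gene value is the sum over isoforms and an isoform near or under the mean fragment length of 200 nt has a small effective length. *Ptpn6* has 11 annotated transcripts, 3 of them under 200 nt and the shortest of 120 nt, whereas *Csk* has 1 of 2748 nt and the shortest of *Lyn* and *Syk* are 685 and 2030 nt. Among protein-coding genes with a mean FPKM of 10 or more, 33.9% of the 62 genes with a transcript under 200 nt differed past 1.5-fold in either direction. This share was 15.1% of 218 genes whose shortest transcript had at least 200 but under 300 nt, the class of *Src*. It was 6.75% of 1214 genes with at least 300 but under 500 nt, the class of *Fgr* and *Fyn*, and 5.24% of 1545 genes with 500 nt or more, the class of *Lyn*, *Syk* and *Csk*. These classes were chosen after the values had been seen. Both genes lower past 1.5-fold thus belong to the classes with the larger shares, and the part of short isoforms in their values was not tested. Without *Ptpn6*, 1 of 7 genes was higher and 1 of 7 lower (14.3% each).

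**Figure D3:**
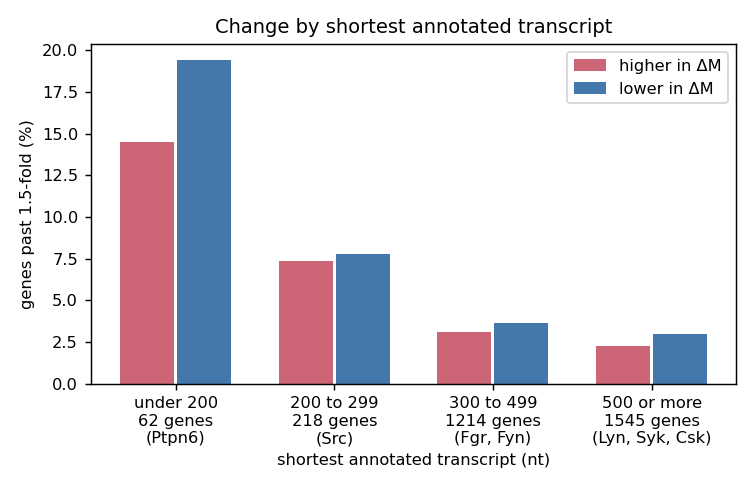
Share of protein-coding genes with a mean FPKM of 10 or more that were past 1.5-fold in ΔM against WT, higher (red) or lower (blue), by the length of the shortest annotated transcript, with the described genes of each class in brackets. Of genes with a transcript under 200 nt, the class of *Ptpn6*, 14.5% were higher and 19.4% lower, compared with 2.27% and 2.98% of those with 500 nt or more.

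Exons of *Gm17726* share 248 bases with *Lyn* and were listed at 2.16 and 2.43 FPKM in WT and ΔM, and exons of *Gm20531* share 195 bases with *Ptpn6* (1.09 and 0.69 FPKM). Both are antisense, and whether the counting used the strand is not given in the sources used here. The other 7 genes share no exon base with another gene.

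Among *Lyn*, *Fgr*, *Src*, *Fyn* and *Yes1*, the summed level was close in both libraries (285 FPKM in WT and 291 FPKM in ΔM), whereas the shares of *Src* and *Fgr* differed. *Lyn* held the largest share of these 5 kinases in both (54.9% and 56.2%). *Src* held 23.4% in WT and 14.8% in ΔM, and *Fgr* held 10.8% and 18.4%. The level of *Src* was 2.16 times that of *Fgr* in WT and 0.804 times in ΔM, whereas both together held 34.2% and 33.2%. The share of *Fyn* was 10.8% and 10.7%.

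In order of level, WT cells had *Ptpn6*, *Lyn*, *Src*, *Syk*, *Fyn*, *Fgr*, *Csk*, *Btk* and *Yes1*, in which the counting intervals of *Fyn* and *Fgr* overlapped and those of other neighbors did not. In ΔM cells *Ptpn6* and *Lyn* were followed by *Fgr*, *Syk*, *Src*, *Fyn*, *Csk*, *Btk* and *Yes1*, and no neighboring intervals overlapped. These intervals cover counting error only and leave out the limit that short annotated isoforms can put on the order, as for *Ptpn6* and *Src*.

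**Figure D4:**
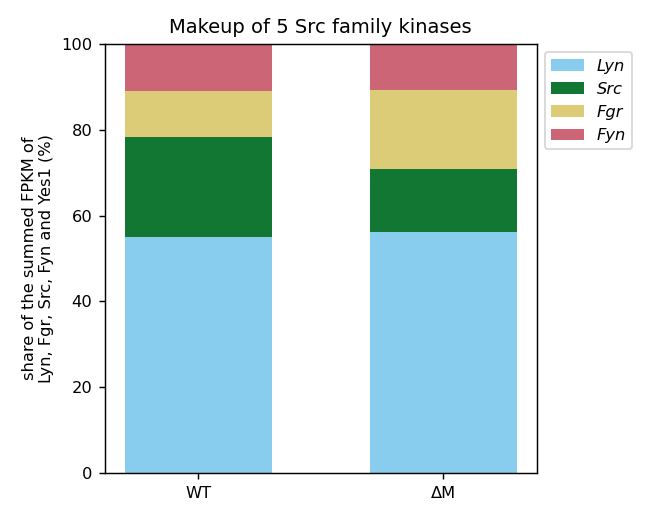
Shares of single kinases in the summed FPKM of *Lyn*, *Fgr*, *Src*, *Fyn* and *Yes1* in WT and ΔM BMDMs (*Yes1*, near 0, is not drawn). *Lyn* held 54.9% in WT and 56.2% in ΔM, while *Src* stood above *Fgr* in WT and below it in ΔM.

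The genes that work with these kinases were mostly at similar levels in both libraries. In 6 lists of related genes, 65 of 66 genes were present in the table and 54 reached a mean of 1 FPKM. Past 1.5-fold, 2 of the 54 were higher and 2 lower in ΔM (3.70% each, beside 4.82% and 5.36% of protein-coding genes and 11.2% and 7.51% of all genes), and their median log2 ratio was -0.002. None passed 2-fold after adding 1 FPKM.

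*Lck*, a Src family kinase best known from T cells, was at 9.58 FPKM in WT cells and 10.8 FPKM in ΔM cells (log2 ratio 0.15). No T cell marker exceeded 1.03 FPKM in either library. *Blk* and *Frk* were under 1 FPKM. Of the other Syk and Tec family kinases, *Tec* alone reached a mean of 1 FPKM, with 4.29 FPKM in WT and with 6.83 FPKM in ΔM. Its log2 ratio of 0.57 was close to that of *Btk*, a member of the same family, and its plain ratio was 1.59.

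None of 12 further regulators, which include phosphatases that act on Src family kinases and the ubiquitin ligases *Cbl* and *Cblb*, passed 1.5-fold. Of protein-coding genes with a mean FPKM of 1 or more, 10.2% passed it in either direction. The highest were *Ptpn1* (156 and 165 FPKM in WT and ΔM), *Ptprj* (72.5 and 65.5 FPKM) and *Ptprc*, which encodes the phosphatase CD45 (71.4 and 72.7 FPKM). The log2 ratios of these 12 lay between -0.27 and 0.32, beside 0.50 for *Csk* and -0.73 for *Ptpn6*. The part of short annotated isoforms in the value of *Ptpn6* was not tested, and *Cbl*, among the 12, also has a short transcript (237 nt).

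On the receptor side, the ITAM adaptors *Fcer1g* (908 and 843 FPKM) and *Tyrobp* (467 and 481 FPKM), which encode FcRγ and DAP12, were close in both libraries. *Clec4e*, which encodes the FcRγ-coupled lectin Mincle, was lower in ΔM (622 and 360.0 FPKM, log2 ratio -0.79). It was the only one of 8 expressed genes of this list past 1.5-fold. Of 8 expressed genes of ITIM receptors, which recruit SHP-1 or the lipid phosphatase SHIP1, *Clec4a2* was higher in ΔM (29.5 and 45.0 FPKM, log2 ratio 0.59). *Cd300a* was lower (9.63 and 4.80 FPKM, log2 ratio -0.87), with a plain ratio of WT to ΔM of 2.01. The highest ITIM receptor genes, *Clec12a* (210.2 and 204 FPKM), *Fcgr2b* (179.8 and 204 FPKM) and *Lilrb4* (199 and 165 FPKM), did not pass 1.5-fold. Beside both lists stands the 10.2% of protein-coding genes past 1.5-fold in either direction.

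Of 24 expressed adaptors and substrates, 1 passed 1.5-fold, beside 10.2% of protein-coding genes in either direction. *Inpp5d*, which encodes SHIP1, the phosphatase that removes a phosphate from the lipid product of PI3 kinase, was at 8.92 FPKM in WT cells and 18.8 FPKM in ΔM cells. Its log2 ratio of 0.999 lay just under 2-fold, whereas its plain ratio was 2.11. The highest of the list, *Pik3ap1* (167 and 168 FPKM), *Fyb* (144 and 124 FPKM) and *Pik3cd* (118 and 128 FPKM), did not pass 1.5-fold.

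**Figure D5:**
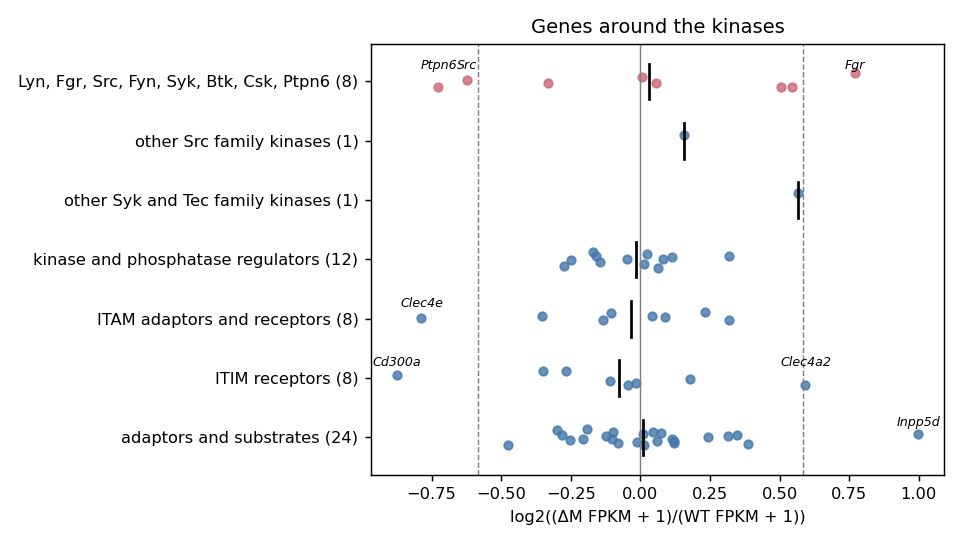
Log2 ratios of ΔM to WT of the 8 expressed genes described here (red) and of expressed genes in the 6 related lists (blue), 1 point per gene with the number of genes in brackets, where black bars mark medians and dashed lines 1.5-fold. *Fgr*, *Src*, *Ptpn6*, *Clec4e*, *Cd300a*, *Clec4a2* and *Inpp5d* lie past the lines.

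Markers of other cell types were read beside genes of this set that such cells also express. *Fgr* is also a neutrophil gene. Of 6 neutrophil markers, *S100a8* was at 50.7 FPKM in WT cells and 100.02 FPKM in ΔM cells, while *S100a9*, *Ly6g* and *Elane* were listed at 0 in both. *Camp* was listed at 0 FPKM in WT cells and 0.41 FPKM in ΔM cells, and *Mpo* at 0.09 and 0.05 FPKM. The summed level of the list, 50.8 and 100.5 FPKM, was almost all *S100a8*, which LPS-treated macrophages also express. *Btk* is also a B cell gene, and no B cell marker exceeded 0.28 FPKM in either library. Mast cell markers summed to 0.27 FPKM in WT and 0.51 FPKM in ΔM. Of 4 platelet markers, *Pf4* was at 114 FPKM in WT cells and 91.7 FPKM in ΔM cells, while *Itga2b*, *Gp1ba* and *Gp9* were at 0.46 FPKM or less in both. NK cell, dendritic cell, erythroid and fibroblast markers were all under 1 FPKM. Of the 8 macrophage markers, *Emr1*, *Cd68*, *Csf1r*, *Itgam* and *Cd14* had log2 ratios between -0.16 and 0.19, *Mertk* was at 2.15 and 3.48 FPKM (0.51) and *Mrc1* at 5.45 and 11.6 FPKM (0.96). *Lyz2*, at 2481 and 1356 FPKM (-0.87), is the lysozyme M locus that carries Cre in ΔM mice. The part of other cells or of the state of the macrophages in the values of the set was not tested.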

How the data were processed

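RNA-Seq was measured in 1 WT and 1 ΔM library of rRNA-depleted RNA with cDNA of 200 to 300 nt. After adapter and quality trimming, the authors aligned reads to mm9 with Segemehl, retained unique matches and calculated FPKM with Cufflinks on Ensembl exons. The deposited FPKM values, with 2 decimals and 1 value per gene, hold no counts, and no count test was applied. In all, 1 gene had no number in ΔM. Reads that match near-identical copies equally well are lost under such mapping.

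The 9 genes, the related lists and the markers were chosen with earlier results of these data known, and support nothing beyond description. Named are all 9, of each related list the highest genes by mean FPKM (up to 3) and every gene past 1.5-fold with a mean FPKM of 1 or more, and *Zfp36*. *Gm11787*, *Gm17726*, *Gm20531*, *Cbl*, *Cblb*, *Blk*, *Frk* and single markers were added for the description after their values were seen. Genes were matched by identifier to GENCODE M1 of NCBIM37 (37039 of 37451), where *Syk* is named *Sykb*.

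Depth was found as the number of fragments and mean fragment length at which low FPKMs of single-transcript genes (300 to 700 nt) are whole multiples of 1 fragment. This held for 87.3% of 990 genes in WT and 87.1% of 985 in ΔM, where 11.5% and 10.2% would be so by chance. Intervals (95%, Poisson) use the median annotated transcript length and are approximate. The search and the calls were tested on simulated data. Log2 ratios used a pseudocount of 1 FPKM. No p-values were calculated. Alternatives covered the pseudocount, scaling, the filter and gene type. Windows of 100 nt (every 25 nt) were aligned with minimap2 2.31, requiring 95 nt and at most 2 mismatches. Similar 3′ UTR length means 0.8 to 1.25 times. The sequences of the *Lyn* sites were taken from the supplementary site list and read again in NCBIM37. Python 3.11.15, numpy 2.4.6, pandas 2.3.3, scipy 1.17.1 and matplotlib 3.10.9 were used. Some genes of the planned lists are not reported here, and the shares among Src family kinases were therefore calculated over the 5 described.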

Additional observations from a re-analysis of the deposited data

How the results depend on the processing

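No paired analysis was possible because each genotype has 1 library. Each of 8 log2 ratios was recalculated under 5 alternatives (3 pseudocounts, 2 scalings), and 37 of 40 values lay within the counting interval of the plain ratio, with no change of sign among genes past 1.5-fold. The 3 outside came from a pseudocount of 5 FPKM, with log2 ratios of 0.70 for *Fgr*, 0.40 for *Btk* and 0.42 for *Csk*. The number of described genes higher past 1.5-fold became 2 with no pseudocount and 2 with a pseudocount of 0.1 FPKM, since *Btk* passed, and the number lower became 1 with a pseudocount of 5 FPKM, since *Src* no longer passed. Of all genes, 1202 were higher and 808 lower past 1.5-fold, and 613 and 389 past 2-fold. With a mean of at least 10 FPKM these were 612, 278, 306 and 130, among protein-coding genes 389, 433, 96 and 107, and, chosen after seeing the data, among protein-coding genes of that level 98, 119, 22 and 26. A pseudocount of 5 FPKM gave 431 lower past 1.5-fold and 226 past 2-fold. The cause of these differences in number was not tested. Depth limits *Yes1*, and replicates are lacking for both libraries described here. The paper also measured WT and ΔM BMDMs with biological replicates in a separate RNA-Seq experiment, which was not used here.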

Other observations

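The snoRNA gene *SNORA17*, which lies in an intron of *Lyn* on the opposite strand and is shorter than the mean fragment, was listed at 0 FPKM in WT cells and 10.8 FPKM in ΔM cells. It was singled out after its value was seen, and its value stands apart from the ratio of *Lyn* itself. Of the transcript windows of *Gapdh*, a reference gene with many pseudogenes, 46 of 53 (86.8%) also aligned elsewhere in the genome, compared with 9 of 135 for *Lyn*, and *Gapdh* was listed at 3.59 FPKM in WT cells and 2.54 FPKM in ΔM cells. *Gapdh* was chosen for this contrast after its value was seen.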
